A study of Mus musculus with 6 samples.

Results

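Regulatory T cells (Treg cells) are CD4+ T cells that restrain immune responses, and a small set of transcripts is commonly used to recognise them in the mouse. The set described here holds 10 such genes: the transcription factor genes Foxp3, Ikzf2 and Ikzf4, the surface receptor genes Il2ra, Ctla4, Nrp1, Lrrc32 and Gpr83, and the cytokine genes Il10 and Ebi3. Members were found as the probe sets to which the platform annotation gives exactly 1 gene symbol, that of a member. This gave 18 probe sets for 9 of the 10 genes, out of 45101 probe sets and 18193 genes named in this way. Lrrc32, whose product GARP holds latent TGF-beta on the cell surface, has no such probe set and was not analysed here. The genes with a probe set lie on chromosomes X (Foxp3), 1 (Ikzf2, Ctla4 and Il10), 10 (Ikzf4), 2 (Il2ra), 8 (Nrp1), 9 (Gpr83) and 17 (Ebi3).

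Foxp3 encodes the factor that defines the Treg lineage, and IL-2 and TGF-beta are the signals that induce and maintain it in CD4+ T cells. In mouse cultures retinoic acid, the vitamin A metabolite, is known to strengthen the induction of Foxp3 by TGF-beta, whereas IL-6 opposes it and directs the same cells towards the Th17 state. Several members are not particular to Treg cells: Il2ra, Ctla4 and Ikzf2 are also switched on in activated conventional T cells, and Il10 and Ebi3 also in other leukocytes.

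RNA came from cultured CD4+ T cells of mouse spleen and of peripheral and mesenteric lymph nodes, and was hybridised to 6 oligonucleotide arrays in 3 groups of 2, with the labels Control, RA (retinoic acid) and Ro, a name left unexpanded there. Strain, age, genotype, doses and times of RA and Ro are not stated in the labels used here. Whether the arrays of a group came from separate cultures or animals is not given either, so a p-value measures only the spread between these arrays, which may be technical. A culture mixture is stated for Control replicate 2 alone: human IL-2 at 100 U/ml, human TGF-b1 at 5 ng/ml, mouse IL-6 and TNF-a at 20 ng/ml, mouse IL-1b, IL-23 and IL-21 at 10 ng/ml, and antibodies to IL-4 at 10 ng/ml and to interferon gamma at 10 ug/ml, for 5 days. Signals below are the deposited probe set values in arbitrary units on a linear scale. A signal of one probe set is not compared with that of another.

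Control replicate 2 stood apart before any member was considered. Its log2 values correlated with those of the other arrays at 0.869 to 0.880, against 0.947 to 0.970 among the other 5. The Y-linked gene Eif2s3y read 0.972 there and 747 to 967 elsewhere. The T cell identity of the material was plain on every array: Cd3d, a chain of the T cell receptor complex, lay between 6059 and 7512, and Cd4 between 1141 and 1791 on 5 arrays and at 463 on Control replicate 2. The 8 measured T cell markers summed to 25452 to 31275 on 5 arrays and to 19035 on Control replicate 2. All of them but Cd2 were lowest on that array. Cd247 stood at 955 there and at 2558 to 3272 elsewhere, and Cd5 at 1635 and at 3323 to 4529. Results that rest on the Control group are therefore given with and without that array.

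**Figure D1:**
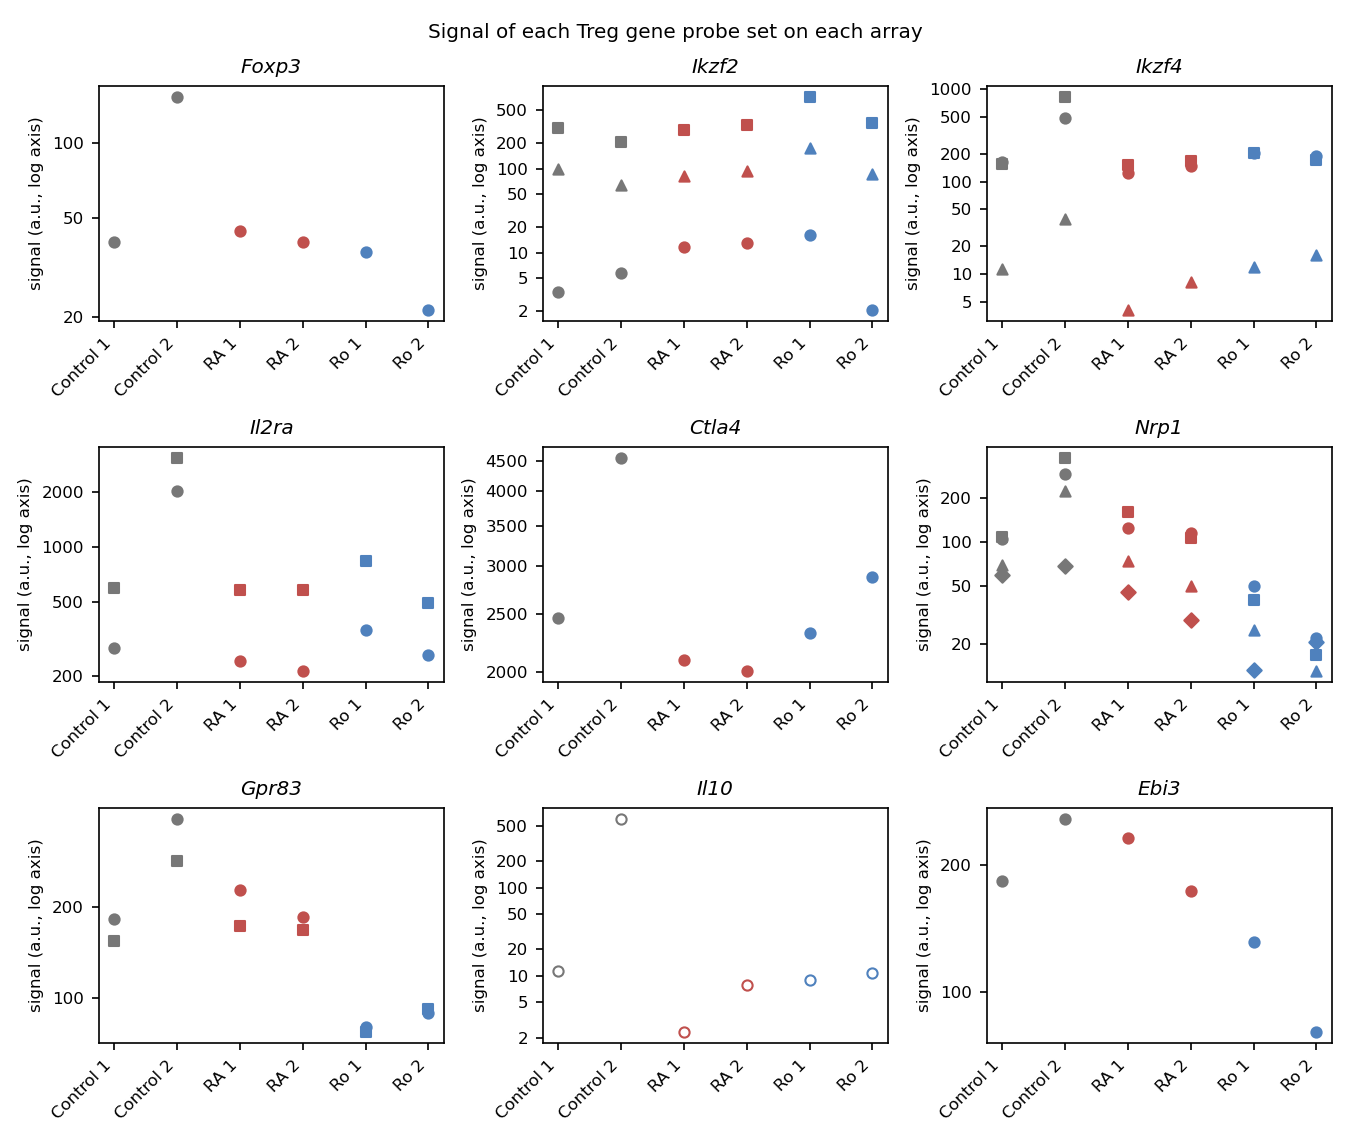
Signal of every member probe set (y axis, arbitrary units, log axis) on each of the 6 arrays (x axis), with Control in grey, RA in red and Ro in blue, and a marker shape for each probe set of a gene. Open symbols mark Il10, which was too dim to pass the filter used for testing. Control replicate 2 is the highest array for 15 of the 18 probe sets, and both Ro arrays are the lowest for those of Foxp3, Nrp1, Gpr83 and Ebi3.

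Among the transcription factors, Foxp3 had signals of 40.3 and 154 for Control, 44.3 and 40.1 for RA, and 36.7 and 21.3 for Ro. Control replicate 2 was 3.49-fold above the next highest array, the RA arrays lay close to Control replicate 1, and the Ro arrays lay just below all others. The mean was 42.2 ± 2.96 (SD, n = 2) for the RA arrays, against 29.0 ± 10.9 (SD, n = 2) for the Ro arrays. The gap between the nearest RA and Ro arrays, 40.1 and 36.7, was small beside the spread within Ro, and once each array was divided by its median the Ro arrays were no longer both below Control replicate 1. The log2 difference of RA minus Ro was 0.75 (SE 0.65) and did not pass (limma adjusted p = 0.999). Ranked within its own array, Foxp3 stood at the 80th percentile of probe sets on Control replicate 2 and between the 50th and the 61st elsewhere.

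Ikzf4 encodes Eos, an Ikaros family zinc finger protein that works with Foxp3 in gene repression. Its brightest probe set had signals of 154 and 818 for Control, 151 and 167 for RA, and 201 and 171 for Ro. The 5 arrays other than Control replicate 2 stayed within a narrow band, and Control replicate 2 was 4.06-fold above the highest of them. The second and the third probe set also placed that array at the top, 2.38-fold and 2.41-fold above the next. The third was dim, at 4.13 to 16.3 on the 5 arrays other than Control replicate 2. RA minus Ro was -0.011 (SE 0.72) on the log2 scale for the brightest Ikzf4 probe set, and -0.31 (SE 0.55) and -0.71 (SE 0.64) for the second and the third, with a limma adjusted p of 0.999 for each. In signal, the RA arrays lay below both of the Ro arrays for all 3 probe sets, and for the second and the third also after each array was divided by its median.

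Ikzf2, which encodes the related factor Helios, did not share that pattern. Its brightest probe set had signals of 309 and 206 for Control, 287 and 329 for RA, and 723 and 348 for Ro. Here Control replicate 2 was the lowest array and Ro replicate 1 stood alone at the top. The second probe set showed the same arrangement, with 177 on Ro replicate 1 and 63.5 to 99.2 on the others. The log2 difference RA minus Ro was -0.49 (SE 0.46, limma adjusted p = 0.999) for the brightest probe set, and it turned to 0.11 without Ro replicate 1. The third probe set was dim, at 2.06 to 16.2, and pointed the other way (0.86, SE 0.72).

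The receptor gene Il2ra encodes CD25, the alpha chain that gives the IL-2 receptor its high affinity. Its brighter probe set had signals of 601 and 3062 for Control, 587 and 588 for RA, and 843 and 496 for Ro. Control replicate 2 was 3.63-fold above the next array with this probe set and 5.73-fold with the other. With the brighter probe set the RA and Ro arrays overlapped, with means of 587 ± 0.702 and 669 ± 245 (SD, n = 2 each). With the dimmer one both RA arrays, 241 and 212, were below both Ro arrays, 353 and 259, but not once each array was divided by its median. RA minus Ro was -0.20 (SE 0.82) on the log2 scale for the dimmer probe set. For the brighter it was 0.075 (SE 0.71). That difference was below 0 before it was taken relative to the median probe set, which shifted by -0.21. Its sign also depended on Ro replicate 2, without which it was -0.35.

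Ctla4, the gene of an inhibitory receptor that binds CD80 and CD86, lay at the 98th or 99th percentile of probe sets on every array. Signals were 2462 and 4554 for Control, 2093 and 2007 for RA, and 2325 and 2880 for Ro. Control replicate 2 was again highest, 1.58-fold above the next array, and the RA arrays were lowest. RA minus Ro was -0.12 (SE 0.33) on the log2 scale relative to the median probe set, and the RA and Ro arrays overlapped once each array was divided by its median. No difference of Ctla4 was therefore detectable between RA and Ro with these arrays.

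Nrp1 showed the widest separation of RA from Ro among the members. It encodes neuropilin-1, a receptor for semaphorins and vascular endothelial growth factor that marks thymus-derived Treg cells in the mouse. Its brightest probe set had signals of 107 and 374 for Control, 160 and 107 for RA, and 39.5 and 16.6 for Ro. Both Ro arrays lay below the other 4, and the mean was 133 ± 37.7 (SD, n = 2) for the RA arrays, against 28.1 ± 16.2 (SD, n = 2) for the Ro arrays, a 4.74-fold ratio of mean signals. The other 3 probe sets placed both Ro arrays below the other 4 as well. The second brightest had 124 and 114 for RA, and 49.8 and 22.0 for Ro, and the third 73.9 and 49.6 for RA, and 24.7 and 13.0 for Ro. The dimmest, for which RA gave 45.2 and 29.3 and Ro 13.2 and 20.6, had the smallest ratio of means, 2.20. Ro replicate 2 was the lowest array for 3 of these Nrp1 probe sets and Ro replicate 1 for the fourth.

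On the log2 scale RA minus Ro was 2.42 (SE 0.68) for the brightest Nrp1 probe set and 1.96 (SE 0.60), 1.81 (SE 0.63) and 1.22 (SE 0.44) for the others. The limma adjusted p was 0.999 for each in the fit of all 6 arrays. When only the RA and Ro arrays were fitted, the difference of that probe set was 2.43 (SE 0.44) with a limma adjusted p of 0.436, and 0 of the 17 member probe sets were called, against 0.0430% of all probe sets. In fits chosen after seeing the data, leaving out an array changed this. Without Ro replicate 1 the 3 brightest Nrp1 probe sets were called, 3 of 16 member probe sets against 2.14% of all, with a difference of 3.06 for the brightest. Without Ro replicate 2 only the brightest was called, 1 of 16 against 1.59% of all, at 1.82. Such fits assume that the lone Ro array varies like the RA arrays. Without RA replicate 1 or RA replicate 2 no member probe set was called.

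Gpr83 encodes a G protein-coupled receptor that is abundant in mouse Treg cells. Its brighter probe set had signals of 182 and 394 for Control, 229 and 186 for RA, and 79.6 and 89.2 for Ro. The Ro arrays were close to each other and well below the other 4, and the mean was 2.45-fold higher in RA (207 ± 30.3) than in Ro (84.4 ± 6.77; SD, n = 2 each). The second probe set gave 173 and 168 for RA, and 76.7 and 91.9 for Ro. RA minus Ro was 1.47 (SE 0.47) and 1.21 (SE 0.43) on the log2 scale, with a limma adjusted p of 0.999 for both. With the RA and Ro arrays alone, the SE of the brighter Gpr83 probe set was 0.29 and the limma adjusted p 0.554.

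Of the cytokine genes, Ebi3 encodes the subunit that IL-27 and IL-35 share. It had signals of 183 and 258 for Control, 232 and 174 for RA, and 131 and 80.1 for Ro. Both Ro arrays were again the lowest, whereas Control replicate 2 was only 1.11-fold above the next array. RA minus Ro was 1.16 (SE 0.43, limma adjusted p = 0.999) on the log2 scale, and the means were 203 ± 41.1 in RA and 106 ± 36.2 in Ro (SD, n = 2 each).

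Il10 encodes an anti-inflammatory cytokine that Treg cells and other effector T cells secrete. Its probe set had signals of 11.3 and 612 for Control, 2.30 and 7.91 for RA, and 8.92 and 10.9 for Ro. A clear signal was present on Control replicate 2 alone, where Il10 reached the 93rd percentile of its array. On the other 5 arrays it lay between the 19th and the 39th percentile, below the filter used for testing. It was therefore left out of every fit that used a filter, and no fold is given. In the setting without a filter no member probe set was called.

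The promoters of Nrp1, Gpr83, Ebi3 and Foxp3 are shown because these are the members whose signal was lowest on both Ro arrays. RefSeq (GRCm38.p6) gave a promoter, from 250 bases before to 50 bases after a transcript start, for 6 of the 10 genes. Capitals mark AGGTCA, the half-site that retinoic acid receptors bind, TTCNNNGAA, the core of STAT sites, and CAGAC, a SMAD half-site, searched on both strands, and no matches overlap in the sequences shown. Each is written 5′ to 3′ on the plus strand, which is the strand of all these genes.
Nrp1, chr8:128358823-128359122: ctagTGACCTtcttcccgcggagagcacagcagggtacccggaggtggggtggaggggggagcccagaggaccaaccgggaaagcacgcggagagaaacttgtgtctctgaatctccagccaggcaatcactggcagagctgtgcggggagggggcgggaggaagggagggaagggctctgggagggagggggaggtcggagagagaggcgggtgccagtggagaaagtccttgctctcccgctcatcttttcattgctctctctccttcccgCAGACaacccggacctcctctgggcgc
Gpr83, chr9:14859960-14860259: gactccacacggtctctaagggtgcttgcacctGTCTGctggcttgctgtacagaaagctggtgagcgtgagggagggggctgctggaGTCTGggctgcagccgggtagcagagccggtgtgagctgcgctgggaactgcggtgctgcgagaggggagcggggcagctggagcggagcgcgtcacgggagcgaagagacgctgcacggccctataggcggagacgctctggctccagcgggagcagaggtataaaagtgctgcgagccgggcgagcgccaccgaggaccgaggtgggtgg
Ebi3, chr17:55952373-55952672: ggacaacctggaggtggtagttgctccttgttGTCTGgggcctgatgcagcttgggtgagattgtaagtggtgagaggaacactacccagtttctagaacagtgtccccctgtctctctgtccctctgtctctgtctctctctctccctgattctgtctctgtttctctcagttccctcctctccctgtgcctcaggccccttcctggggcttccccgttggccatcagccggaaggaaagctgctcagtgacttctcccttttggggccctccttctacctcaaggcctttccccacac
Foxp3, first listed start, chrX:7579426-7579725: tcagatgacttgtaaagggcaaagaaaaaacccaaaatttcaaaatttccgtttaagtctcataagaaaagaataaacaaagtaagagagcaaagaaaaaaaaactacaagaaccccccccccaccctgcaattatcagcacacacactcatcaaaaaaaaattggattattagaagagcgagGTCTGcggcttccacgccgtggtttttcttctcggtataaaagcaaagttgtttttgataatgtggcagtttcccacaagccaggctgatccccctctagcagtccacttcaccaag
Foxp3, second listed start, chrX:7580233-7580532: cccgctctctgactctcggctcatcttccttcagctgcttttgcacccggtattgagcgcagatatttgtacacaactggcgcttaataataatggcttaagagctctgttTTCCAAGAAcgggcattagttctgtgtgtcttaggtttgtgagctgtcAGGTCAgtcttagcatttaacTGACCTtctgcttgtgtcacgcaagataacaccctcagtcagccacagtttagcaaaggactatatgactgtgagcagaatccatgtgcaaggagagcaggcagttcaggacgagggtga

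AGGTCA occurred 1 time in the Nrp1 window, 2 times at the second listed start of Foxp3 and not in the Gpr83, Ebi3 or first Foxp3 window. It is present in 16.3% of the 32851 promoter windows of the same table. TTCNNNGAA was found only at the second listed start of Foxp3 among these windows and is present in 8.30% of all. CAGAC occurred 1 time each for Nrp1, Ebi3 and the first start of Foxp3 and 2 times for Gpr83, and is present in 49.6% of all. Those matches are letters in a window and not binding data, and the 4 genes with the lowest Ro signals shared none of the 3 motifs other than CAGAC.

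Across the members, the limma fit of all 6 arrays called 0 of 17 tested member probe sets between RA and Ro, against 0% of the 29531 probe sets tested. At an unadjusted p under 0.05 there were 4 member probe sets, 3 of Nrp1 and 1 of Gpr83, against 1.68% of all. Both RA arrays lay above both Ro arrays for 8 of the 17, those of Nrp1, Gpr83, Ebi3 and Foxp3, against 6.83% of all probe sets. Both lay below for 6 of the 17, against 33.8% of all, and for 3 once each array was divided by its median, against 27.3% of all. Both Ro arrays were below the other 4 arrays for the same 8 member probe sets, against 2.71% of all, a criterion chosen after the values were seen. With each array divided by its median this held for 7, all but Foxp3, against 3.39% of all. The 8 probe sets belong to only 4 genes, and probe sets of the same gene are not independent readings. The median log2 difference of RA minus Ro over the 8 tested member genes was 0.41, with 5 above and 3 below the median probe set, and over all 12996 tested genes it was -0.025. An exact permutation of 2 arrays against 2 cannot give a two-sided p below 0.333.

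**Figure D2:**
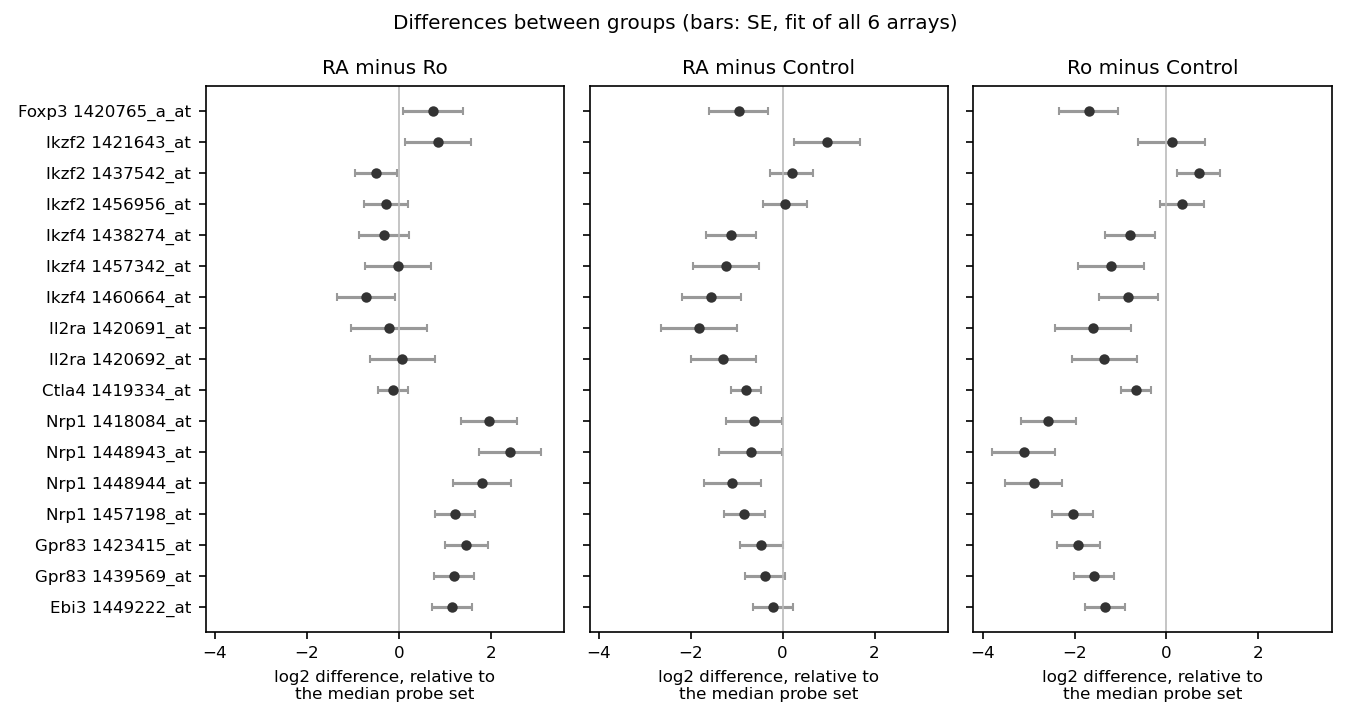
Log2 difference between groups for the 17 tested member probe sets (points) with its SE (bars), relative to the median of all tested probe sets, for RA minus Ro, RA minus Control and Ro minus Control in the fit of all 6 arrays. The Nrp1, Gpr83 and Ebi3 probe sets lie above 1 for RA minus Ro and below -1 for Ro minus Control, whereas those of Il2ra and Ctla4 lie near 0 for RA minus Ro.

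Markers of other cell types were read beside these values. None of their genes passed between RA and Ro in the fit of all 6 arrays. With only the RA and Ro arrays fitted, the mast cell gene Cma1 passed (limma adjusted p = 0.0239). Cma1 had signals of 33.9 and 43.9 for RA, and 492 and 518 for Ro. The summed signal of 7 mast cell and basophil markers was 1409 to 1539 in RA, 3838 to 5799 in Ro and 162 to 3851 in Control, and 7 of 7 had a log2 difference of RA minus Ro below the median probe set. Their part in the Nrp1, Gpr83 and Ebi3 values was not tested. Macrophage and monocyte markers, 7 of 7 measured, summed to 455 to 493 in RA, 383 to 1030 in Ro, which overlapped, and 144 to 1677 in Control, where Lyz2 stood at 1287 on replicate 1 and 9.57 on replicate 2. The 6 dendritic cell markers summed to 72.9 to 79.4 in RA, 100.2 to 100.3 in Ro and 94.2 to 720.4 in Control. Batf3 made up 653 on Control replicate 2, and had signals of 12.1 and 7.08 for RA, and 39.1 and 40.5 for Ro. Of the 4 tested dendritic cell markers, only Batf3 lay below the median probe set for RA minus Ro, and the other 3 lay above. Siglech, a marker of plasmacytoid dendritic cells, a type that also carries Nrp1 in humans, was at 12.7 or below on every array, and B cell markers summed to 59.9 to 135 over all 6 arrays. Sums of the 3 NK cell markers overlapped between RA (94.9 to 260) and Ro (228 to 440), and were 163 and 657 in Control. Those of the 2 CD8 T cell markers ran from 58.9 to 93.1 in RA and 139 to 187 in Ro, and were 135 and 321 in Control. Both sums were highest on Control replicate 2, as were most members. Of their genes, only Klrk1, at 627, and Cd8a, at 236, were highest there. Cd8b1 stood at 85.0 on that array and 54.6 to 164 over all arrays, and Ncr1 at 9.24 and 7.38 to 11.9. Eomes, at 20.7 on Control replicate 2, was lowest there. The part of these cell types in the member values on that array was not tested. In bulk RNA, fewer cells of a type and less RNA per cell cannot be told apart.

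Against Control the members depended on which Control array was used. In the fit of all 6 arrays 0 of 17 member probe sets were called for RA minus Control and 0 of 17 for Ro minus Control, against 0% of all probe sets in each. At an unadjusted p under 0.05 there were 0 for RA minus Control, against 1.81% of all, and 7 for Ro minus Control, against 4.07% of all. The 7 were the 4 probe sets of Nrp1, the 2 of Gpr83 and that of Ebi3, and all were lower in Ro. Of the 8 tested genes 7 lay below the median probe set in both comparisons, with median log2 differences of -0.75 and -1.35, and Ikzf2 was the exception in each. Over all 12996 tested genes the medians were 0.015 and 0.032, and 51.3% and 52.3% of genes lay above 0. These comparisons share the Control arrays.

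Control replicate 2 was above the other 5 arrays for 14 of the 17 tested member probe sets, against 15.4% of all probe sets, a criterion also chosen after the values were seen. The 3 exceptions were those of Ikzf2. Here too several probe sets belong to the same gene and are not independent readings. Divided by the array medians the count was again 14, against 26.5% of all. The ratio of Control replicate 2 to Control replicate 1 ran from 1.15 for the dimmest Nrp1 probe set to 7.16 for the dimmer Il2ra probe set among these 14. Whether the other arrays shared the culture mixture stated for Control replicate 2 is not known, so culture, array and Y-linked expression cannot be told apart there.

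Without Control replicate 1, 8 of 17 member probe sets were called for RA minus Control, against 15.1% of all, and 12 of 17 for Ro minus Control, against 24.9% of all, in each case lower than Control replicate 2. The 8 belonged to Il2ra, Ctla4, Foxp3, Ikzf4 and Nrp1, and the 12 to the same genes and Gpr83. For the brighter Il2ra probe set the differences were -2.73 (SE 0.34, limma adjusted p = 0.00598) for RA and -2.78 (SE 0.34, limma adjusted p = 0.00501) for Ro. For Foxp3 they were -2.16 (SE 0.43, limma adjusted p = 0.0313) and -2.88 (SE 0.43, limma adjusted p = 0.00923). The lone Control array is assumed there to vary like the RA and Ro arrays.

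Without Control replicate 2 no member probe set was called, and the members fell into separate patterns by value. For Il2ra, Ctla4 and Ikzf4 the RA and Ro arrays were then near Control replicate 1, with log2 differences from -0.067 to 0.24. Nrp1, Gpr83 and Ebi3 stayed lower in Ro, at -1.98 (SE 0.53), -1.13 (SE 0.36) and -0.87 (SE 0.42), and lay slightly higher in RA, at 0.47 (SE 0.53), 0.37 (SE 0.36) and 0.32 (SE 0.42). Their limma adjusted p values were 0.999 for Ro and 0.996 for RA. Foxp3 stood at -0.53 (SE 0.45) for Ro and 0.26 (SE 0.45) for RA. That both Ro arrays lay below each Control array and both RA arrays is the order by which Nrp1, Gpr83 and Ebi3 were singled out. Leaving out a Control array could not turn that order of signals, and each comparison uses the same Ro arrays. The fits without a Control array are thus no separate evidence for it. By the brightest probe sets, the higher level of Il2ra, Ctla4 and Ikzf4 in Control was that of Control replicate 2.

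**Figure D3:**
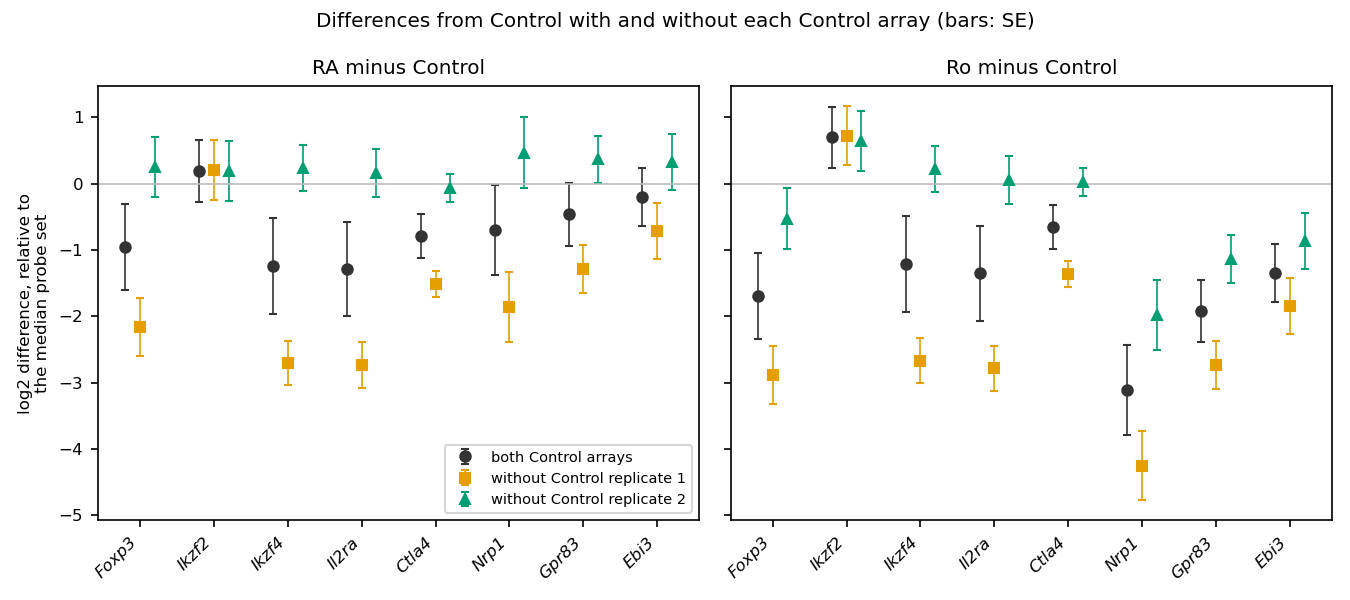
Log2 difference from Control (y axis, relative to the median probe set, bars SE) for the 8 tested member genes, each by its brightest probe set, with both Control arrays (black circles), without Control replicate 1 (orange squares) and without Control replicate 2 (green triangles). Without Control replicate 2 the values of Il2ra, Ctla4 and Ikzf4 lie near 0 in both panels, while Nrp1, Gpr83 and Ebi3 remain below -0.8 for Ro minus Control.

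Genes that act with the members were read from lists drawn up for this description, each gene by its brightest tested probe set. None of the 8 lists had a gene that passed in either direction in any of the 3 comparisons, and the median log2 difference of RA minus Ro was below 0 in every list, against -0.025 over all genes, of which 47.2% lay above 0. The list of other Treg surface and effector genes had 21 of 24 genes tested, with 6 above and 15 below the median probe set and a median of -0.31. Nt5e, which encodes the adenosine-producing enzyme CD73, stood apart with signals of 349 and 999 for Control, 386 and 352 for RA, and 99.4 and 69.2 for Ro. Like Nrp1 it was lowest on both Ro arrays and highest on Control replicate 2, and RA minus Ro was 2.33 (SE 0.54, limma adjusted p = 0.999). In the same list, Lag3, an inhibitory receptor gene, had 818 and 688 for RA, and 2202 and 1449 for Ro (-1.04, SE 0.33), and the calcium-binding protein gene S100a4 had 133 and 92.7 for RA, and 463 and 175 for Ro (-1.12, SE 0.86). Both were lower in RA by value, opposite to Nt5e.

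For IL-2 receptor and STAT5 signalling 7 of 8 genes were tested, with 6 of 7 below the median probe set and a median of -0.22. Il2rb, the beta chain of the receptor, had signals of 625 and 961 for Control, 332 and 676 for RA, and 919 and 1089 for Ro. RA and Ro did not overlap, and RA replicate 1 was the lowest of all 6. The same held for the transcription factor genes Stat5a, with 209 and 428 for RA, and 530 and 681 for Ro, and Stat5b, with 484 and 775 for RA, and 862 and 1334 for Ro. Such an order, both RA arrays below both Ro arrays, was common, at 33.8% of all probe sets. The genes were also picked for their large differences. RA minus Ro was -0.86 (SE 0.44), -0.78 (SE 0.46) and -0.59 (SE 0.41) for the 3 genes, with a limma adjusted p of 0.999 for each.

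Among 20 genes of Foxp3 induction and of Foxp3 partner proteins, 6 lay above and 14 below the median probe set, with a median of -0.13. Runx3, which like Runx1 encodes a DNA-binding partner of Foxp3, had signals of 518 and 814 for Control, 336 and 409 for RA, and 913 and 972 for Ro. The groups did not overlap, and RA minus Ro was -1.12 (SE 0.36, limma adjusted p = 0.999). Both RA arrays lay below both Ro arrays for 33.8% of all probe sets too. Ikzf3, the gene of the Ikaros family factor Aiolos, had 235 and 516 for RA, and 575 and 961 for Ro (-0.87, SE 0.54), whereas Runx1 overlapped between the groups, with 395 and 235 for RA, and 247 and 204 for Ro (0.65, SE 0.52).

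The neuropilin ligand and coreceptor list had 9 of 10 genes tested, 4 above and 5 below, with a median of -0.25. Sema4a, a class 4 semaphorin gene, had signals of 586 and 380 for Control, 286 and 446 for RA, and 1015 and 1311 for Ro. Both Ro arrays lay above the other 4, where those of Nrp1 lay below, and RA minus Ro was -1.47 (SE 0.40, limma adjusted p = 0.999). Vegfa, a growth factor gene and ligand of neuropilin-1, had 45.5 and 50.3 for RA, and 41.1 and 19.4 for Ro (0.91, SE 0.86), and the second neuropilin gene, Nrp2, 8.96 and 19.9 for RA, and 25.8 and 27.2 for Ro (-0.62, SE 0.52). Neither difference exceeded its SE by much.

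For the partners and receptors of the EBI3 cytokines 5 of 7 genes were tested and all 5 lay below the median probe set, with a median of -0.15. Il12rb2, a receptor chain used by IL-12 and, in the mouse, by IL-35, had signals of 19.1 and 45.6 for RA, and 117 and 137 for Ro (-1.77, SE 0.54). RA and Ro did not overlap, in the order found for 33.8% of all probe sets. The Ebi3 partner gene Il12a was dim, from 2.20 to 20.9 over the arrays (-0.36, SE 0.79), and the shared receptor gene Il6st gave -0.15 (SE 0.93), with 110 on Control replicate 2 and 634 to 1485 elsewhere.

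IL-10 induction and receptor genes, 10 of 11 tested, had a median of -0.26 for RA minus Ro, with 3 above and 7 below. Ahr, the aryl hydrocarbon receptor gene, had signals of 41.8 and 552 for Control, 22.4 and 26.7 for RA, and 59.6 and 42.2 for Ro. Like Il10 it was by far highest on Control replicate 2. The receptor gene Il10ra and the transcription factor gene Stat3 gave -0.72 (SE 0.54) and -0.58 (SE 0.36) for RA minus Ro, and Ahr -0.74 (SE 1.04).

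The CTLA4 pathway list, 6 of 6 tested, had 3 genes on each side and a median of -0.14. Cd86, a ligand gene of CTLA4, had signals of 39.1 and 265 for Control, 25.9 and 27.8 for RA, and 59.8 and 65.9 for Ro (-0.93, SE 0.80). Cd80, the gene of the other ligand, overlapped between RA and Ro (0.55, SE 0.54), and the tryptophan-degrading enzyme gene Ido1 was dim at 0.380 and 2.51 for RA, and 10.6 and 14.5 for Ro (-1.62, SE 0.57). Latent TGF-beta handling, the process that Lrrc32 serves, had 9 of 12 genes tested, 1 above and 8 below, with a median of -0.24. Its members with the largest differences were the latent TGF-beta binding protein genes Ltbp1 (-1.45, SE 0.66), which was dim, and Ltbp3 (0.59, SE 0.63), and the TGF-beta coreceptor gene Tgfbr3 (-0.60, SE 0.54). Ltbp3 had 20.3 and 14.5 in RA, 13.0 and 12.3 in Ro and 109 on Control replicate 2.

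**Figure D4:**
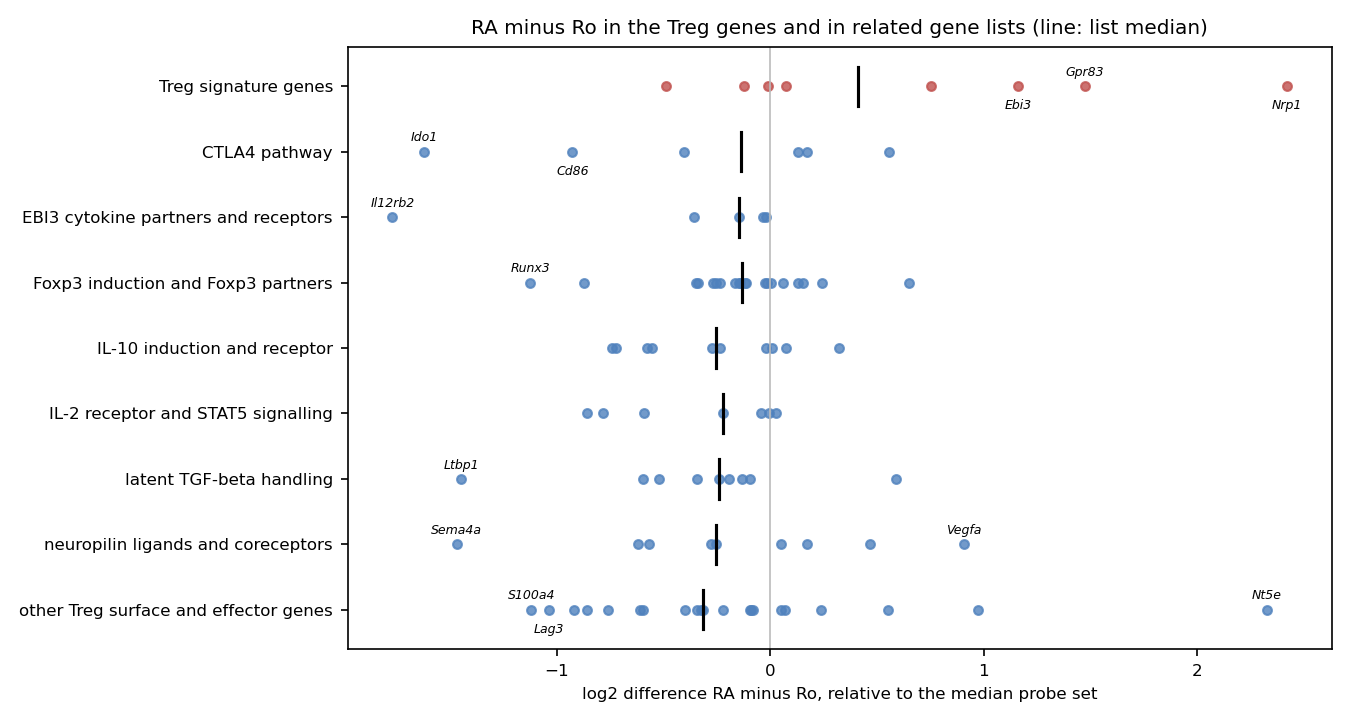
Log2 difference of RA minus Ro (x axis, relative to the median probe set) for each tested Treg gene (red points) and for the genes of 8 related lists (blue points), with the list median as a black line. Nrp1 and Nt5e lie farthest to the right, at 2.42 and 2.33, and the medians of the 8 related lists lie between -0.31 and -0.13.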

How the data were processed

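The deposited values are probe set intensities on a linear scale, which the authors made with MAS5, per the submitters' processing notes; its version and settings are not stated there. Array medians ran from 16.2 to 23.7. Gene names came from the platform annotation at GEO. The 64 control probe sets were left out, and 29531 probe sets were tested, those above their array's 40th percentile on 2 or more arrays.

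Differences were fitted in R 4.3.3 with limma 3.58.1 (lmFit; eBayes, trend on) on log2(signal + 2.99), the pseudocount being the 20th percentile of all values, with all 6 arrays, 3 residual degrees of freedom and no block. Adding it makes differences of dim genes look smaller. p-values were two-sided, adjusted by Benjamini-Hochberg over all probe sets tested, with a threshold of 0.05, and computed without centring. The log2 differences printed are relative to the median probe set, which shifted by -0.21 for RA minus Ro, 0.085 for RA minus Control and 0.29 for Ro minus Control; signals, SDs and folds of signals are not so corrected.

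All members are named, and in each related list any gene that passed, else the 3 whose RA minus Ro was farthest from 0; Eif2s3y and the cell type markers singled out were named after their values were seen. A gene was represented by the tested probe set of highest mean log2 signal, leaving out probe sets marked _s_at or _x_at where it had another. Members and lists were chosen with earlier results of these data known. The number of arrays limits the precision. The scripts were tested on simulated data.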

Additional observations from a re-analysis of the deposited data

How the results depend on the processing

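Settings tried were pseudocounts of 1 and the median, quantile normalization, other filters (none, or the 60th percentile), eBayes without a trend, a replicate block, only the groups compared, leaving out each array and, per gene, the mean over its probe sets. Fits of only the groups compared with a block or without an array were added after seeing the data. Leaving out 1 array of all 6, member probe sets called numbered 0 in every fit for RA minus Ro, 0 to 8 for RA minus Control and 0 to 12 for Ro minus Control, and all probe sets called from 0 to 12, 0 to 4370 and 0 to 7207. Leaving out 1 array with only the groups compared, the members ran from 0 to 3, 0 to 10 and 0 to 10, and all probe sets from 0 to 573 (423 without Ro replicate 2), 0 to 8067 (32 without Control replicate 2) and 0 to 4942. With only the groups compared 12 were called for RA minus Ro. Replicate numbers were not taken to pair the arrays: deviations of same-numbered arrays correlated at 0.25 for RA and Ro, 0.0050 for RA and Control and -0.029 for Ro and Control. With the replicate block no call arose in the fit of all arrays. In fits of only the groups compared the replicate block gave 106 calls for RA minus Ro (0.380% of probe sets), of which 1 was a member, the brightest probe set of Nrp1 (limma adjusted p = 0.0215), 56 for RA minus Control and 93 for Ro minus Control. For Nrp1, Gpr83, Ebi3 and Foxp3 RA minus Ro stayed above 0 in every setting run, from 1.82 to 3.06, 1.26 to 1.69, 0.77 to 1.59 and 0.35 to 1.19. These genes were singled out because both RA arrays lay above both Ro arrays. Leaving out an array could therefore not turn their sign, and its constancy in those fits is no separate evidence.

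Signs turned for RA minus Ro in Ikzf2 with the mean over probe sets (0.033), in Ikzf4 with quantile normalization (0.053) and the 60th percentile filter (0.022), and in Il2ra with the mean over probe sets (-0.061). Signs also turned on leaving out 1 array, of all 6 and then of only the groups compared. RA minus Ro gave, in turn, Ikzf2 from -1.06 to 0.11 and from -1.05 to 0.12, Ikzf4 from -0.17 to 0.18 and from -0.16 to 0.19, Il2ra from -0.35 to 0.53 and from -0.34 to 0.54. RA minus Control gave, in turn, Ebi3 from -0.71 to 0.32 and from -0.72 to 0.33, Foxp3 from -2.16 to 0.26 and from -2.17 to 0.26, Gpr83 from -1.28 to 0.37 and from -1.29 to 0.37, Ikzf4 from -2.70 to 0.24 and from -2.71 to 0.24, Il2ra from -2.73 to 0.16 and from -2.74 to 0.17, Nrp1 from -1.86 to 0.47 and from -1.87 to 0.47. Ro minus Control gave, in turn, Ctla4 from -1.36 to 0.025 and from -1.38 to 0.022, Ikzf4 from -2.66 to 0.22 and from -2.68 to 0.22, Il2ra from -2.78 to 0.058 and from -2.80 to 0.055. The cause of these changes was not tested.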
